A study of Mus musculus with 33 samples.

Results

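The sites described here are the 943 Sox2 binding sites of wild type (WT) mouse embryonic stem cells (ESCs) that had no counterpart in Uhrf1 knockout (KO) ESCs, of 5190 WT Sox2 sites in all. They were chosen by measured positions: a WT Sox2 summit, the base with the most reads in a peak, was counted as lost when no KO Sox2 summit lay within 1000 bp, and the other 4247 WT sites were counted as kept. The share lost was thus 18.2% (interval 17.1 to 19.2), and the KO Sox2 list, with 20755 summits, was the longer one. Because positions in both Sox2 lists made the choice, these counts and the Sox2 heights below are descriptions only.

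The series profiled undifferentiated E14 cells, an established mouse ESC line, labelled WT or Uhrf1 KO, by chromatin immunoprecipitation and sequencing (ChIP-seq) of Oct4, Sox2, Nanog, H3K4me3, H3K27me3 and H3K9me3, and of Uhrf1 in WT ESCs alone. H3K4me3 and H3K27me3 were also profiled in embryoid bodies (EBs), the differentiating aggregates that ESCs form, at weeks 1, 2 and 3. All ESCs were grown in serum with leukemia inhibitory factor, without any treatment, and the number of KO clones is not given in the sources used here. Of 33 samples, 25 had a list of regions and 8 were inputs, and each group held 1 library, so replicate error is unknown and no p-value is given. Intervals are at the 95% level and cover counting error over sites only (Wilson's method for a share, Newcombe's for a difference).

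Sox2 is an HMG-box factor that often binds DNA beside Oct4, at a joined motif made of a Sox element and an octamer element, and together with Nanog they hold ESCs in the pluripotent state. Uhrf1 recognises hemimethylated DNA and methylated H3K9 and is known for bringing the maintenance methyltransferase Dnmt1 to replicating DNA. H3K4me3 marks active and poised promoters, H3K27me3 is laid down by Polycomb, and H3K9me3 is typical of silenced repeats, so the 3 marks describe the chromatin in which a site lay.

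The reference sequence at the sites that recur in the results is shown first, as the WT summit with 50 bases on either side, read on the plus strand of mm9. Capitals mark a Sox core (CATTGT or CTTTGT, or their reverse complements ACAATG and ACAAAG) or an octamer core (ATGCAA or TTGCAT). The first 5 lost sites were among the tallest or had Oct4 close by in WT. Each is named by the protein-coding gene with the nearest start. These were Trh, which encodes thyrotropin-releasing hormone (chr6:92196421-92196521), Rhof (chr5:123585017-123585117), the metalloprotease gene Adamts18 (chr8:116408093-116408193), the IGF-binding protein gene Igfbp3 (chr11:7323651-7323751) and the orphan nuclear receptor gene Nr5a2 (chr1:139070725-139070825). The starts were 1827, 2366, 35502, 209775 and 213771 bp away, in this order, so the names are labels and not assigned targets.

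lost, Trh: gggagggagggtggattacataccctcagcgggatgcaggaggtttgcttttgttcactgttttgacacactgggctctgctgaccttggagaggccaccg
lost, Rhof: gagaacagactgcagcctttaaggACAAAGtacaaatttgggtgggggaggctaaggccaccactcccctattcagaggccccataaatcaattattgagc
lost, Adamts18: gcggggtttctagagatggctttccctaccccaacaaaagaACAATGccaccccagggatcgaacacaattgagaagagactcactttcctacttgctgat
lost, Igfbp3: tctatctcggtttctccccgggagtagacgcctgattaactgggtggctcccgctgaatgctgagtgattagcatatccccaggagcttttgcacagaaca
lost, Nr5a2: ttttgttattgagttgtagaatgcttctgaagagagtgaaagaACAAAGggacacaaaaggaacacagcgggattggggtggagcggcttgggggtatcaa

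The next lost sites are shown because their nearest genes act in pluripotency, DNA methylation or early patterning. They belong to Lin28a, an RNA-binding inhibitor of let-7 maturation (chr4:133572367-133572467), to the de novo DNA methyltransferase gene Dnmt3b (chr2:153467543-153467643) and to the caudal homeobox gene Cdx4 (chrX:100522040-100522140). The Cdx4 site held 2 Sox cores and the Lin28a and Dnmt3b sites held none.

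lost, Lin28a: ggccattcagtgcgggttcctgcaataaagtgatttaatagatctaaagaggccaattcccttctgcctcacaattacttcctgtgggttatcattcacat
lost, Dnmt3b: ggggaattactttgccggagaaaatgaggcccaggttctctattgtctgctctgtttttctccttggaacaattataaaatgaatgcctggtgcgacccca
lost, Cdx4: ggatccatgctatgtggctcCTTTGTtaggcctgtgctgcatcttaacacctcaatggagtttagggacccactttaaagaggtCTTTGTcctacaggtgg

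Lost sites inside Uhrf1 windows are represented by the tallest one, nearest to the neuronal membrane glycoprotein gene Gpm6a (chr8:56205707-56205807), and by the second tallest, nearest to Gm13138 (chr4:146347398-146347498). They were intergenic, 165676 and 48511 bp from the starts of these genes. Both were in sequence whose 31-base stretches had a median of 4 exact copies in the genome.

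lost, Gpm6a: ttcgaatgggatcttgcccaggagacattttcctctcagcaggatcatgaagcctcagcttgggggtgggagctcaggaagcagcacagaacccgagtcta
lost, Gm13138: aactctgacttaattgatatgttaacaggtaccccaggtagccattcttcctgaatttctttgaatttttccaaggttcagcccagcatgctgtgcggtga

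For contrast, 2 tall kept sites are given, nearest to the surface antigen gene Ly6c2 (chr15:74917184-74917284) and to Axin2, a feedback inhibitor of Wnt signalling (chr11:108873118-108873218). Both were intergenic, 24880 and 91505 bp from the starts of these genes.

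kept, Ly6c2: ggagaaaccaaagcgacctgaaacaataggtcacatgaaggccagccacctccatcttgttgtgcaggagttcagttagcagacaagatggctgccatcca
kept, Axin2: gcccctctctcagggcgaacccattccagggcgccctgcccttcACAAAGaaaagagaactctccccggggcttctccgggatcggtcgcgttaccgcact

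The lost sites were low. Height, the number of reads at the summit in the deposited WT list, had a median of 16 reads at lost sites (quartiles 14 to 20, range 11 to 155) and of 24 reads at kept sites (17 to 36, range 10 to 609). In 5 groups of nearly equal size, 403 of 1055 sites of 10 to 15 reads were lost (38.2%). The share fell at each step, to 25.1% at 16 to 19 reads, 15.4% at 20 to 25 and 8.28% at 26 to 36. Only 27 of 1033 sites of 37 reads or more were lost (2.61%, interval 1.80 to 3.78). Height and loss thus went together, and the main comparisons below are also given within these groups, averaged with weights by the number of lost sites. Heights were not compared between WT and KO, since the read totals of the libraries were not used.

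**Figure D1:**
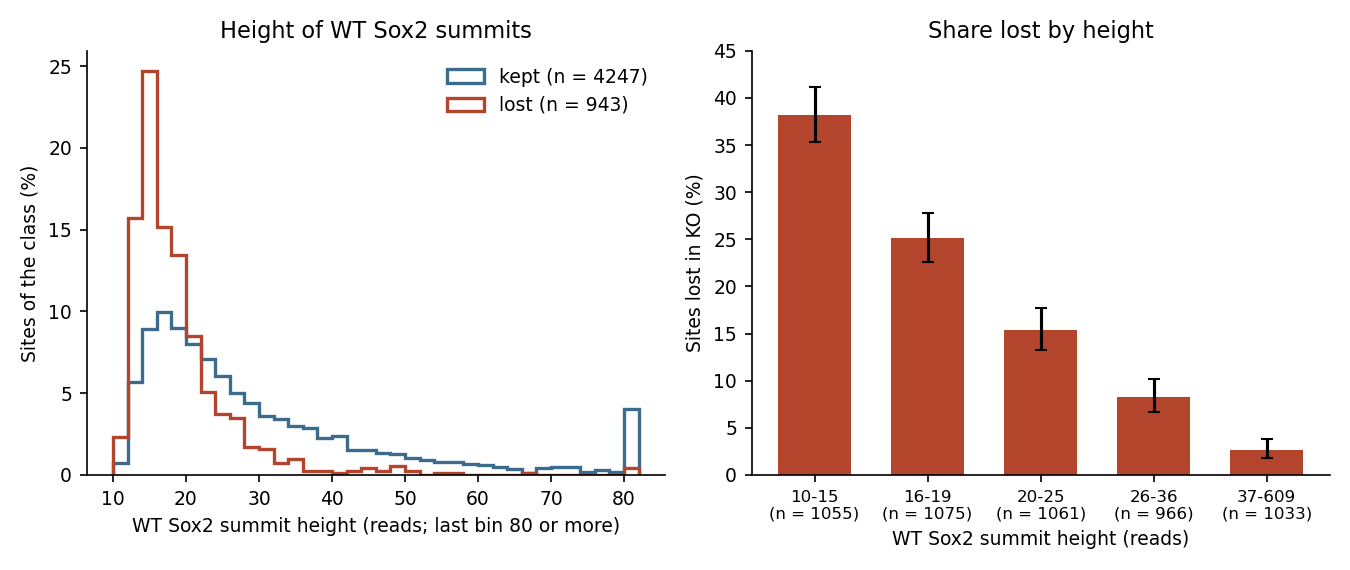
Left, height of WT Sox2 summits in reads (x axis) against the percentage of the class (y axis) for 4247 kept and 943 lost sites, with all sites of 80 reads or more in the last bin. Right, percentage of WT Sox2 sites lost in KO in 5 height groups, with 95% Wilson intervals; the share fell from 38.2% in the lowest group to 2.61% in the highest.

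Most lost sites were not near misses of the 1000 bp limit. The nearest KO Sox2 summit was at a median of 12530 bp (quartiles 3154 to 48574). It lay at 1001 to 2000 bp for 167 sites (17.7%), at 2001 to 5000 bp for 139 (14.7%) and at 5001 to 10000 bp for 118 (12.5%). For 396 sites it lay at 10001 to 100000 bp (42%) and for 123 farther away (13%). Of windows laid every 20 kb over the genome, 12.8% were within 10 kb of a KO Sox2 summit. At kept sites the median distance was 34 bp. The 30 sites just outside the limit, at 1001 to 1099 bp, had a median height of 15 reads, and 9 of them had a WT Oct4 summit within 100 bp. The 33 sites just inside it, at 902 to 998 bp, had a median of 16 reads and 7 had WT Oct4.

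The tallest lost sites were few and differed in kind. The 2 tallest were intergenic, at chr18:3005841 with 155 reads, 2875 bp from a KO summit, and at chr10:21862394 with 136 reads, 8105 bp from one. Both lay in H3K9me3 domains in WT and KO, and neither had WT Oct4 or Nanog within 100 bp. The third was at chr11:3023733, 69733 bp from the start of the centrosome gene Sfi1. It had 104 reads and a WT Oct4 summit of 87 reads at 98 bp, and the nearest KO Sox2 summit was 78545 bp away. This site lay in sequence of 2 copies. The first and the third were within the first 3.5 Mb of their chromosomes, where the assembled sequence begins. The fourth, at chr18:82390687, had 89 reads and no domain of the 3 marks in either genotype. The fifth was the Trh site shown above, 1827 bp upstream of the gene's start, with 67 reads. Its nearest KO Sox2 summit was at 1054 bp, just past the limit. It had no WT Nanog summit within 100 bp, the nearest being at 1144 bp, and a KO Nanog summit of 27 reads at 42 bp.

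In contrast, the tallest kept sites reached 609 reads at chr17:39982068 and 577 reads at the Ly6c2 site. Their KO summits had 571 and 513 reads, at 151 and 3 bp.

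To ask whether loss depended on partner factors, WT Oct4 and Nanog summits within 100 bp were counted. In WT, 282 of 943 lost sites had Oct4 (29.9%) against 2835 of 4247 kept sites (66.8%), a difference of -36.8 points (interval -40.0 to -33.5). WT Nanog was at 69 lost sites (7.32%) and at 1312 kept sites (30.9%), a difference of -23.6 points (-25.6 to -21.3). Within height groups the differences were smaller and of the same direction, -18 points for Oct4 (-21.3 to -14.7) and -6.46 points for Nanog (-8.35 to -4.57). The gap in Oct4 was seen in each of the 5 groups, from 14.6% against 25.5% in the lowest to 33.3% against 83.5% in the highest.

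Sorted by what was bound in WT, 649 of 1937 sites with Sox2 alone were lost (33.5%, interval 31.4 to 35.6), and they made up 68.8% of the lost sites. With Oct4 but not Nanog, 225 of 1872 sites were lost (12%, 10.6 to 13.6). With Nanog but not Oct4, 12 of 136 were lost (8.82%, 5.12 to 14.8). With both, 57 of 1245 were lost (4.58%, 3.55 to 5.89). The last class was also the tallest, with a median Sox2 height of 35 reads against 16 reads at sites of Sox2 alone. Where Oct4 was present, its own summit was lower at lost sites, with a median of 41 reads (quartiles 31 to 56) against 61 (43 to 83) at kept sites.

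**Figure D2:**
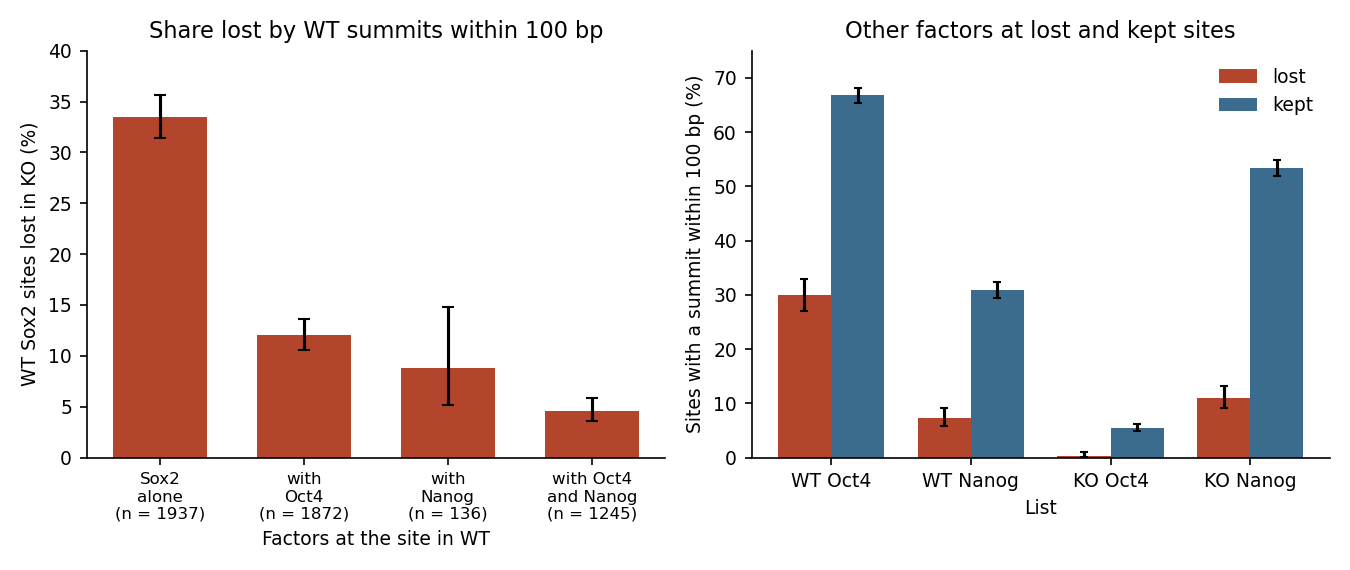
Left, percentage of WT Sox2 sites lost in KO (y axis) by the factors with a WT summit within 100 bp (x axis). Right, percentage of lost and kept sites with a summit of each list within 100 bp. Bars carry 95% Wilson intervals; sites of Sox2 alone were lost most often (33.5%) and sites with Oct4 and Nanog least often (4.58%).

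The other factors were also scarce at the lost sites in KO. KO Nanog lay within 100 bp of 103 lost sites (10.9%) and of 2267 kept sites (53.4%), a difference of -42.5 points (-44.8 to -39.8), and of -21.4 points within height groups (-23.9 to -18.9). KO Oct4 was at 3 lost sites (0.318%) and 234 kept sites (5.51%), a difference of -0.835 points within height groups (-1.25 to -0.424). Over all WT sites of each factor, counted by the same 1000 bp rule, 97.6% of Oct4 sites and 6.86% of Nanog sites had no KO summit of that factor. Of the 282 lost Sox2 sites with WT Oct4, 281 also had no KO Oct4 within 1000 bp (99.6%, interval 98.0 to 99.9), against 92.3% of kept sites, a difference of 7.37 points (5.50 to 8.45), and of 1.61 points within height groups (0.803 to 2.42). Of the 69 lost Sox2 sites with WT Nanog, 26 had no KO Nanog within 1000 bp (37.7%, interval 27.2 to 49.5), against 30 of 1312 kept sites (2.29%, 1.61 to 3.25). The difference was 35.4 points (24.9 to 47.2), and 34.0 within height groups (22.6 to 45.4). By the rule that chose them, all lost sites lacked KO Sox2 within 1000 bp. Of these, 793 (84.1%) also had no KO summit of Oct4 or Nanog within that distance. Kept sites cannot meet this joint count, so it is a description only.

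Of the 103 lost sites with KO Nanog, 66 had no WT Nanog summit within 100 bp and 77 had WT Oct4. Such Nanog was rarer than at kept sites: of sites without WT Nanog, 7.55% of lost and 36.0% of kept ones had KO Nanog (-16.9 points within height groups, -19.2 to -14.6), and of sites with WT Oct4, 27.3% and 69.2%. Their KO Nanog summits were low, with a median of 12 reads (6 to 44). The Rhof site shown above was the tallest lost site with both partners in WT: 50 Sox2 reads, an Oct4 summit of 97 reads at 33 bp and a Nanog summit of 41 reads at 44 bp. In KO it had Nanog, 44 reads at 31 bp, and no Sox2 within 3298 bp. The Igfbp3 site, with 35 Sox2 and 27 Nanog reads in WT and an Oct4 summit taller than that at Rhof, likewise had 27 reads of Nanog at 11 bp in KO. The Adamts18 site, with 44 Sox2, 43 Oct4 and 24 Nanog reads in WT, had neither Sox2 within 35728 bp nor Nanog within 231960 bp in KO. The third tallest lost site with KO Nanog lay in an intron of Lrrk1, with 46 Sox2 reads and a KO Nanog summit of 8 reads at 65 bp.

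The sequence under the lost sites held fewer Sox motifs. A Sox core was found within 50 bp of the summit at 186 of 908 lost sites on placed chromosomes (20.5%, interval 18 to 23.2) and at 1364 of 4226 kept sites (32.3%), against 15.3% of 127923 genome windows of the same length. The difference was -11.8 points (-14.7 to -8.71), and -5.98 within height groups (-9.09 to -2.87). It was seen at sites with WT Oct4 (23.0% against 35.9%) and at those without (19.3% against 24.9%), where within height groups the interval covered 0 (-7.42 to 0.302). In the lowest height group the shares were 17.4% and 18.2%. The octamer core was at 6.28% of lost and 10.1% of kept sites, against 6.06% of windows, and within height groups the interval of this difference reached 0 (-3.65 to 0.0871). The joined motif, a Sox core, 1 base and an octamer core, matched 0 of 908 lost sites, which allows a share of up to 0.330%, and 15 of 4226 kept sites (0.355%), against 0.00469% of windows. The Wilson interval of the lost share reached 0.421%, and the interval of the difference covered 0 (-0.585 to 0.0889). These are exact matches on either strand, and a site without one may hold a variant. The GC content within 100 bp of the summit was alike, with medians of 51.2% at lost and 50.2% at kept sites, against 41.8% in windows.

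Uhrf1 was more often recorded at the lost sites. The deposited Uhrf1 list holds windows of 10 kb enriched over input in WT ESCs. It covered 103 of 908 lost sites (11.3%, interval 9.44 to 13.6) and 179 of 4226 kept sites (4.24%, 3.67 to 4.89), against 5.35% of genome windows. The difference was 7.11 points (5.10 to 9.41) and hardly moved within height groups, where it was 6.32 points (4.07 to 8.57). The windows were concentrated: 66 of the 103 lost sites in them were near 25 genes that had 3 or more lost sites each, and near all other genes 37 of 801 lost sites lay in a window (4.62%). Put the other way, 36.5% of WT Sox2 sites in Uhrf1 windows were lost and 16.6% of those outside.

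These sites were poor in Oct4 and rich in repeated sequence. Within Uhrf1 windows, WT Oct4 was at 13 of 103 lost sites (12.6%, 7.53 to 20.4) and at 104 of 179 kept sites (58.1%, 50.8 to 65.1), a difference of -31.8 points within height groups (-42.6 to -20.9). Sequence whose 31-base stretches had a median of 2 or more exact copies was under 80 of the 103 lost sites (77.7%) and 140 of the 179 kept sites (78.2%). Outside the windows the shares were 15% and 13.3%. Among sites of single-copy sequence alone, the difference in Uhrf1 between lost and kept sites was 2.15 points (1.01 to 3.76) in place of 7.11. The authors kept 1 alignment per read, so a summit in repeated sequence could have been placed at any of its copies, in either library, and the part this took in the loss was not tested.

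The tallest lost site in a Uhrf1 window was the Gpm6a site, with 50 reads and a KO Sox2 summit at 1668 bp. The second, near Gm13138, had 34 reads, an Oct4 summit of 116 reads at 11 bp and a Nanog summit of 21 reads at 5 bp in WT, and a KO Sox2 summit at 1340 bp. The third, at chr14:3128329 near Gm10340, had 31 reads and a KO Sox2 summit at 1460 bp. None of the 3 lay in a domain of the 3 marks.

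Lost sites were somewhat less often in H3K4me3. In WT ESCs, 483 of 908 lost sites lay in an H3K4me3 domain (53.2%) and 2491 of 4226 kept sites (58.9%), a difference of -5.75 points (-9.32 to -2.20), and of -11.3 within height groups (-15 to -7.59). The lost sites were far above the genome, where 8.42% of windows lay in such a domain. This difference depended on the rules used, as given in the closing section. H3K27me3 covered 297 lost sites in WT (32.7%) and 28.8% of kept sites, a difference of 3.89 points (0.608 to 7.28). H3K9me3 covered 380 lost sites (41.9%) and 37.1% of kept sites, a difference of 4.79 points (1.30 to 8.34). Within height groups these came to 4.86 (1.30 to 8.41) and 8.11 points (4.41 to 11.8). In KO ESCs the H3K9me3 difference was of the other sign, 50.2% of lost against 54.9% of kept sites (-8.20 to -1.05 points), and within height groups the intervals covered 0 for KO H3K9me3 (-4.45 to 3.21) and KO H3K27me3 (-1.91 to 2.49). In WT, H3K27me3 covered 37.5% and H3K9me3 38.6% of genome windows. Of the WT shares of these 2 marks, only that of H3K9me3 at lost sites was thus above the genome. In KO the marks covered 3.28% and 42.4% of windows. The KO shares of both classes were above these, with H3K27me3 at 8.92% of lost and 7.00% of kept sites. A bivalent state, H3K4me3 with H3K27me3, was found in WT at 169 lost sites (18.6%) and 14.9% of kept sites, and within height groups the interval of the difference covered 0 (1.08 points, -1.92 to 4.07).

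Next, sites in a WT domain of each mark were checked for a KO domain of it. A mark is called gone where the site lay outside every KO domain, and the amount of signal was not compared. The called extent differed by library: H3K27me3 domains covered 37.5% of genome windows in WT and 3.28% in KO. How much of the counts followed this extent was not tested. Over all placed WT Sox2 sites, 24.6% of those in H3K4me3 were outside every KO H3K4me3 domain, 78.7% for H3K27me3 and 20.1% for H3K9me3. At lost sites H3K4me3 was gone at 130 of 483 (26.9%) and at kept sites at 602 of 2491 (24.2%), a difference of 2.75 points (-1.39 to 7.19). Within height groups it was 6.25 points (1.83 to 10.7). H3K27me3 was gone at 227 of 297 lost sites (76.4%) and 79.3% of kept sites, and the interval of the difference covered 0 (-8.47 to 2.18), also within height groups (-2.60 to 9.14). H3K9me3 was gone at 91 of 380 lost sites (23.9%) and 19.2% of kept sites (difference 0.293 to 9.70 points, and -2.71 to 7.45 within height groups). Sites outside H3K9me3 in WT entered a KO domain of it less often when lost, 167 of 528 (31.6%) against 39.5%, a difference of -7.92 points (-12.2 to -3.44), and of -5.13 within height groups (-9.82 to -0.447). At bivalent sites H3K4me3 was gone at 68 of 169 lost sites (40.2%) and 35.3% of kept ones (-3.16 to 13.3).

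**Figure D3:**
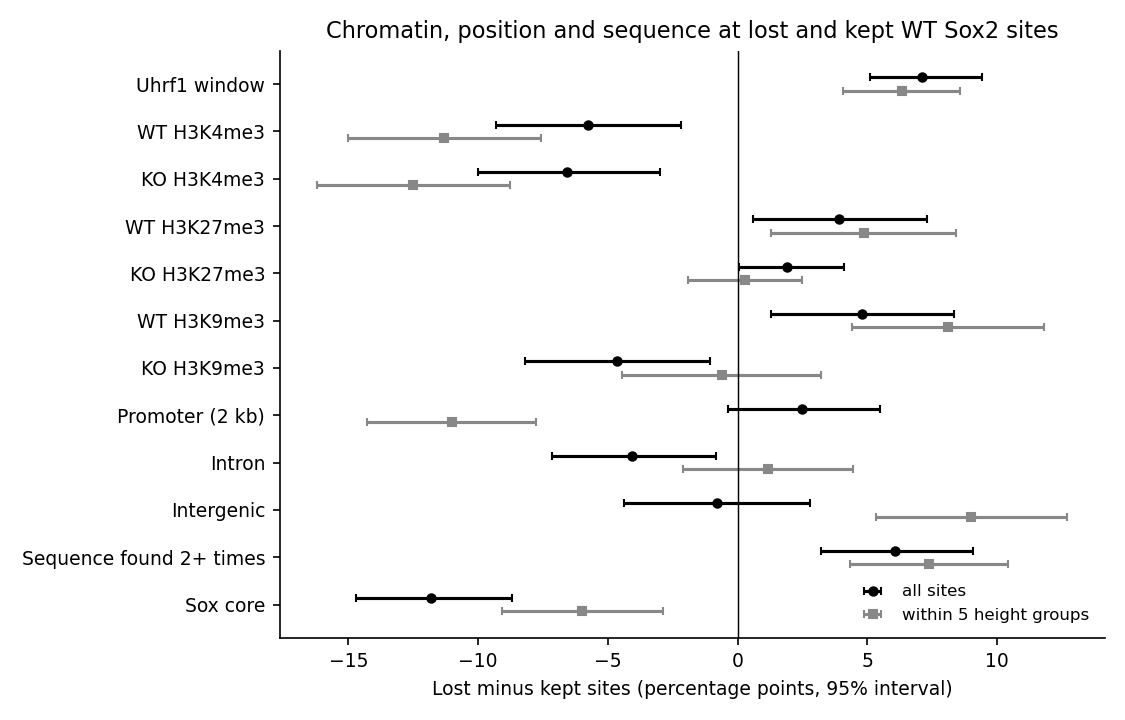
Difference between lost and kept WT Sox2 sites in the percentage with each feature (x axis, percentage points, lost minus kept), over all placed sites (circles) and averaged within 5 height groups (squares), with 95% intervals. Uhrf1 windows and repeated sequence lay above 0 and H3K4me3 and the Sox core below 0 in both, whereas the promoter difference moved from 2.47 to -11.0 points.

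The tallest lost sites in WT H3K4me3 without KO H3K4me3 were at chr8:12502468 (45 reads), at the Igfbp3 site and at chr8:71945736 (32 reads). The first had an Oct4 summit of 64 reads at 60 bp in WT and a KO Nanog summit of 10 reads at 87 bp. Its KO Sox2 summit was 1096 bp away, just past the limit. In WT H3K27me3 the tallest were the chr18:3005841 site, a site of 55 reads at chr11:25926293 in an intron of 5730522E02Rik, and a site of 49 reads at chr15:47371595. The last had an Oct4 summit of 85 reads at 23 bp, and its nearest KO Sox2 summit was 343754 bp away.

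In EBs of both genotypes, H3K27me3 covered more of the lost than of the kept positions. In KO ESCs the interval of this difference within height groups had covered 0 (-1.91 to 2.49). At week 3, 330 lost sites lay in WT H3K27me3 (36.3%) against 29.1% of kept sites, a difference of 7.29 points (3.92 to 10.7), and 245 in KO H3K27me3 (27% against 19.0%, difference 7.96 points, 4.92 to 11.2). Within height groups both exceeded 0 at weeks 1, 2 and 3. For H3K4me3, the lost share was above the kept share at week 1 in WT (41.6% against 33.8%) and KO (30.2% against 24.7%) and below it at week 3 in KO (53% against 60.0%). Averaged within height groups, the difference was below 0 at every week in both genotypes. It ran from -3.07 points at week 1 in KO, where the interval covered 0 (-6.61 to 0.463), to -11.0 points at week 3 in KO (-14.7 to -7.29). At week 3 in KO it was below 0 in each of the 5 groups, but elsewhere the groups differed in sign. At week 1 in WT it was -11.9 points in the lowest group and 30.1 in the highest, which held 26 placed lost sites. Of sites in WT H3K4me3 at week 3, 61 of 492 lost sites were outside every KO domain (12.4%) against 6.45% of kept sites, a difference of 5.95 points (3.12 to 9.29). At weeks 1 and 2 the intervals of this difference covered 0 (-5.31 to 5.41 and -0.450 to 6.76), and within height groups that of week 2 lay above 0 (0.550 to 7.95). Sox2 itself was profiled in ESCs only.

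Position relative to genes depended on height. Lost sites lay within 2 kb of a protein-coding gene start at 199 of 908 (21.9%), in an exon farther away at 47 (5.18%), in an intron at 232 (25.6%) and between genes at 430 (47.4%). For kept sites the shares were 19.5%, 2.77%, 29.6% and 48.2%. The differences for exons (1.04 to 4.11) and introns (-7.14 to -0.841) excluded 0, but not within height groups (-0.828 to 2.56 and -2.11 to 4.44). The difference at starts was 2.47 points (-0.379 to 5.50). It depended on the rules used, as given in the closing section, and was 18.5 points (16.1 to 21.0) with sites kept only within 100 bp. Within height groups only the 1000 bp rule was used. Low sites were often at starts, and among sites of 10 to 15 reads 31.2% of lost and 49.6% of kept sites were there, so that within height groups the difference was -11.0 points (-14.3 to -7.77), and 9.0 points for intergenic sites (5.33 to 12.7). At starts, WT Oct4 was rare in both classes, with 31 of 199 lost sites (15.6%) and 35.5% of kept sites. The median number of CpG within 100 bp there was 15 and 16, against 2 at other sites of either class.

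By chromosome, the share lost was highest on chromosome 8, with 155 of 500 sites (31%, interval 27.1 to 35.2), against 16.2% of the other placed sites (difference 14.8 points, 10.7 to 19). It was higher than on the chromosomes other than 8 and 11 in each height group, from 53.8% against 35.3% in the lowest to 4.82% against 2.21% in the highest, where the interval covered 0 (-0.573 to 9.59). On the other autosomes and X the share ran from 9.24% on chromosome 9 to 20.8% on chromosome 4. The WT Sox2 list was itself dense on chromosome 8, with 3.8 summits per Mb, or 2.39 times the median of the remaining chromosomes, whereas the KO Sox2 list had 8.08 per Mb there, 1.04 times its median. On chromosome 11 both lists were dense (3.51 and 2.31 times), and 134 of 680 sites were lost (19.7%). WT Nanog was dense on both chromosomes as well (2.1 and 2.0 times), and KO Oct4 on chromosome 8 (7.80 times). Chromosomes 8 and 11 held 289 of the lost sites (30.6%) and 21.0% of the kept ones. Whether read depth per chromosome moved with these counts was not tested.

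**Figure D4:**
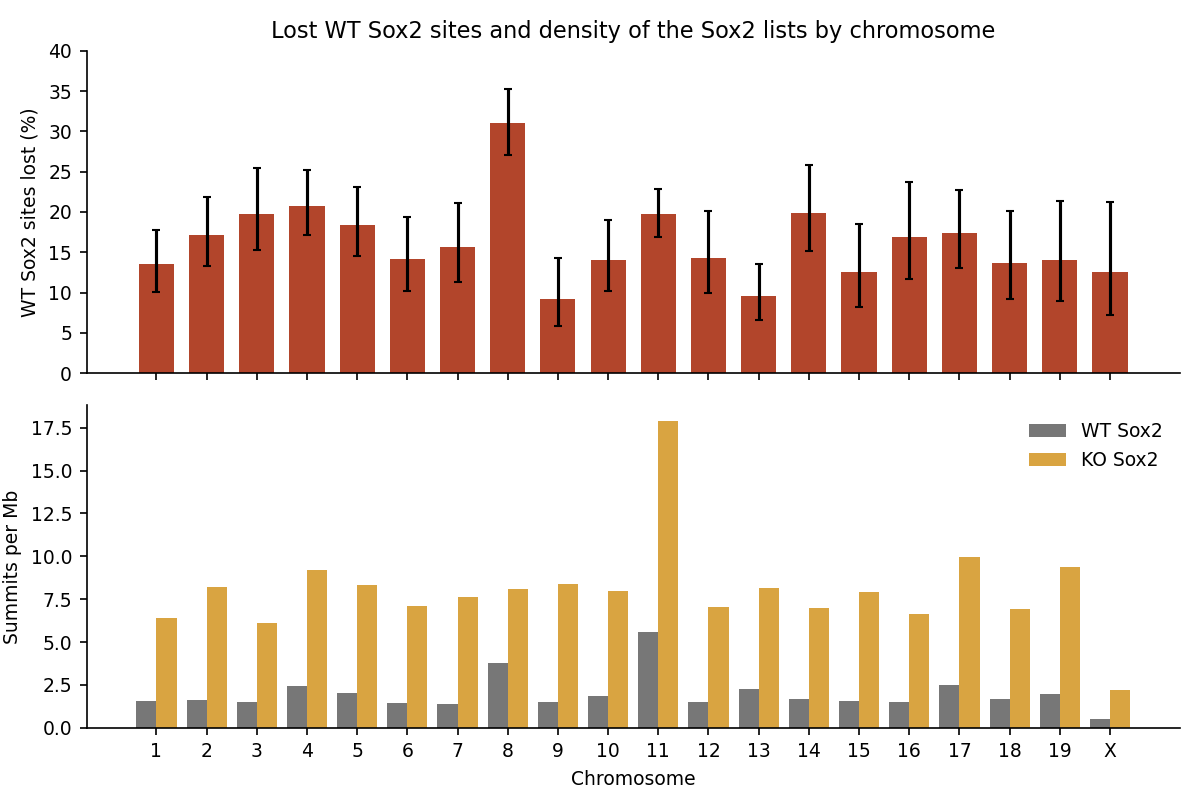
Top, percentage of WT Sox2 sites lost in KO (y axis) on each chromosome (x axis), with 95% Wilson intervals. Bottom, Sox2 summits per Mb in the WT and KO lists. Chromosome 8 had the highest share lost (31%) and a dense WT list, and chromosome 11 was dense in both lists.

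The 908 placed lost sites had 778 nearest genes, of which 302 were also nearest to a kept site (38.8% of the genes of lost sites and 9.75% of the 3096 genes of kept sites). Several sites near 1 gene were uncommon, and 25 genes, singled out after their values were seen, had 3 or more. They held 107 lost sites, of which 61.7% lay in Uhrf1 windows, 67 in repeated sequence (62.6%) and 12 beside WT Oct4 (11.2%). Of the 801 lost sites elsewhere, 134 lay in repeated sequence (16.7%) and 270 beside WT Oct4 (33.7%). Several belonged to gene families that lie in clusters. Gm7697 on chromosome 8 had 12 lost sites, 11 of them in Uhrf1 windows and 12 in repeated sequence. Olfr161, an olfactory receptor gene, had 9. Prl2c3 and Prl2c2, of the prolactin family on chromosome 13, had 6 and 4, all 10 in Uhrf1 windows and WT H3K9me3. Of these, 5 at Prl2c3 and 4 at Prl2c2 also lay in WT H3K4me3. Repeated sequence held 2 at each gene, and the genes had 2 and 3 kept sites. Within 1 Mb of the start of Rex2, in a cluster of zinc finger genes on chromosome 4 that also holds Zfp600, 31 of 78 WT Sox2 sites were lost (39.7%). Of the 31, 26 lay in Uhrf1 windows and 23 in repeated sequence (74.2%). Uhrf1 at the kept sites of this cluster was not counted.

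Lin28a was the 1 gene of the pluripotency list among the 25. Of its 4 WT Sox2 sites, 3 were lost: 19, 20 and 17 reads, at 6845, 2339 and 1030 bp from the start, in single-copy sequence. The nearest KO Sox2 summit was 6914, 2408 and 1099 bp away, the last just past the limit. Each lost site had WT Oct4 within 100 bp, at 20, 47 and 39 reads, and each lay in H3K4me3 in WT and KO. The fourth, 69 bp from the start with 27 reads, was kept, with a KO Sox2 summit at the same base and a KO Nanog summit of 9 reads at 17 bp.

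Lists of genes, 7 in all, were then read for their nearest sites, against the 17.7% lost over placed sites. These shares were not set within height groups. Of the 100 pluripotency sites, 68 were above the median WT Sox2 height, against 2476 of all 5190 WT sites. Above that height 1.47% of the pluripotency sites were lost (interval 0.260 to 7.87), against 6.83% of all sites. How much of each list's share followed height was not tested. For the pluripotency network, 36 of 39 annotated genes were nearest to a WT Sox2 site, and 11 of 100 sites, near 8 genes, were lost (11%, interval 6.25 to 18.6). Apart from Lin28a, the tallest were at Nr5a2 (25 reads, 213771 bp from the start), Socs3, an inhibitor of LIF signalling (19 reads, 28046 bp), and Lefty1, a Nodal inhibitor (18 reads, 86 bp). The Nr5a2 site had Oct4 and Nanog in WT, 45 reads at 35 bp and 12 reads at 51 bp, and H3K4me3 in WT but not in KO. Socs3 and Lefty1 kept taller sites of 153 and 125 reads. Their lost sites had the nearest KO Sox2 summit at 2175 and 1064 bp, the latter just past the limit. Of the 36 genes, 1 had lost sites alone.

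Genes of chromatin and DNA methylation enzymes had 5 of 26 sites lost (19.2%, 8.51 to 37.9). The 4 genes with a lost site had no kept one: Hdac2 (48 reads, 56580 bp from the start, in sequence of 36 copies), Dnmt3b (31 reads, 7593 bp upstream), Dnmt3a (14 reads at each of 2 sites) and Hdac1 (11 reads, 1544 bp). This was common, since 476 of all 778 genes nearest to a lost site had no kept one. The 26 sites of this list lay near 19 genes, so few genes could have had both. The Dnmt3b site had Oct4 at 74 reads and Nanog at 32 reads in WT, and Nanog at 13 reads in KO, 84 bp away. Its nearest KO Sox2 summit was 1377 bp away.

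Of the lineage lists, neuroectoderm regulators had 4 of 49 sites lost (8.16%, 3.22 to 19.2). These were 2 of 7 sites at Otx1 (16 and 12 reads), 1 at Pou3f1 (14 reads, 1614 bp from the start) and 1 at Nkx2-2 (12 reads, in an intron). All 4 lay in WT H3K4me3 and H3K27me3, as did 18.6% of all placed lost sites. The kept sites of Otx1 and Nkx2-2 lay in both marks as well. Mesoderm and cardiac regulators had 2 of 19 lost (10.5%, 2.94 to 31.4), 1 of them at Hand2, a heart transcription factor, with 12 reads. Endoderm and trophoblast regulators had 3 of 12 lost (25%, 8.89 to 53.2), at Cdx4 (24 reads), Ttr (20 reads) and Cdx2 (13 reads). The Cdx4 site, in an intron, had Oct4 at 27 reads in WT, Nanog at 10 reads in KO, and H3K4me3 in WT only. Developmental signals had 7 of 69 lost (10.1%, 5.0 to 19.5), the tallest at the hedgehog receptor Ptch1 (21 reads), the Wnt receptor Fzd7 (19 reads), the ligand Fgf8 (17 reads) and the Notch ligand Dll1 (15 reads). At Dll1 the site was 922 bp from the start, lost H3K4me3 in KO, and its KO Sox2 summit was 1144 bp away. Of the 2-cell and germline list, 1 site was recorded, and it was kept.

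Outside these lists, and chosen after its values were seen, a lost site of 48 reads lay 301 bp from the start of Dux, a homeobox gene of the 2-cell embryo, inside the gene (chr10:57688153). It lay in WT H3K27me3, and in H3K9me3 in both genotypes, in sequence of 2 copies, and the nearest KO Sox2 summit was 98199 bp away.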

How the data were processed

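ChIP-seq was done by the authors in WT and Uhrf1 KO E14 ESCs and EBs, in 33 samples with 1 library per group. Per the submitters' processing notes, reads were aligned to mm9 with Bowtie2 2.1.0, and the study's methods add that 1 alignment per read was kept. The authors called factor summits with MACS and deposited for each a signal, the height in reads as a whole number. Histone domains were called by the authors with RSEG. They were deposited with a signal (average reads in each bin) and with a score, used here only to rank H3K4me3 domains. Uhrf1 windows were deposited by the authors without a score. The 8 input samples were not analysed here.

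A WT Sox2 summit was lost when no KO Sox2 summit lay within 1000 bp; the study used 100 bp between peaks, for loss as well. Factors were counted as sharing a site within 100 bp between summits, and marks and Uhrf1 windows by the summit lying inside them. Coordinates were compared with NCBIM37, the assembly of mm9, and 0 of 530 comparisons of a list with a chromosome's length ran over. Gene starts (22380 protein-coding genes) came from GENCODE. Factor overlaps cover all sites, whereas marks, Uhrf1, genes and sequence cover the 5134 sites on placed chromosomes. Repeated sequence was measured as exact 31-base copies in the genome, chosen after the files were seen, since the FASTA marks no repeats. Differences within 5 height groups carry a normal 95% interval. Python 3.11.15, numpy 2.4.6, pandas 2.3.3 and matplotlib 3.10.9 were used. On 3760 simulated sites, made by shifting isolated WT summits by known distances, 0 lost calls were wrong. This checks the distance calculation only and not the lost calls of these data. The sites, gene lists and alternatives were chosen with earlier results of these data known. Sites were named by height: the 5 tallest lost, the 3 tallest kept, the 3 tallest lost sites with WT Oct4 and Nanog, with KO Nanog, in a Uhrf1 window, in WT but not KO H3K4me3 and in WT H3K27me3, and for each list the 4 genes with the tallest lost sites. The single-copy Axin2 site was added later. A site and a gene that this rule names are not reported here.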

Additional observations from a re-analysis of the deposited data

How the results depend on the processing

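No paired analysis was possible because each group held 1 library. Differences are lost minus kept sites in percentage points. Counting a site as kept only within 100 bp raised the share lost from 18.2% to 35.4%, that of chromosome 8 to 50.2% and that of the pluripotency list to 27%. The differences became -48.2 for WT Oct4, -29.2 for WT Nanog, -50.1 for KO Nanog, -17.4 for the Sox core and 18.5 for promoters, and H3K4me3 reversed to 6.78. At 5000 bp the shares were 12.3%, 23.4% and 4.0%, and WT Oct4 came to -33.0, Uhrf1 to 4.23, H3K4me3 to -15.6 and promoters to -1.25. Among WT sites above the median height the shares were 6.83%, 12.3% and 1.47%, the median height of lost sites was 27 reads, and the differences were -30.1 (WT Oct4), -29.0 (WT Nanog), -48.3 (KO Nanog), 4.27 (Uhrf1), -14.1 (H3K4me3), -1.50 (promoters) and -16.3 (Sox core). With the KO list shortened to the 5190 tallest summits the shares were 48.0%, 70.0% and 24.0%, the differences -42.2, -34.4, -52.8, 4.89, 0.743 (H3K4me3, reversed), 19.9 and -16.0 in the same order. Without chromosomes 8 and 11, an alternative added after the data were seen, the share lost was 16.3%, WT Nanog -25.7, Uhrf1 9.47 and H3K4me3 -9.33. With single-copy sequence alone, also added later, the share was 16.6% and Uhrf1 2.15. Within 500 bp WT Nanog came to -26.1 and KO Nanog to -47.5, and with H3K4me3 domains above the median score the H3K4me3 difference was 0.213, reversed. The intervals of 0.743 (-1.96 to 3.44) and 0.213 (-3.32 to 3.79) covered 0, as did that of H3K4me3 in single-copy sequence (-3.17, -7.13 to 0.695). The causes of these changes were not tested. The other 37 of 83 alternatives stayed within the interval of the reported value. The differences for WT Oct4, WT Nanog, KO Nanog and the Sox core stayed below 0 and that for Uhrf1 above 0 in all of them.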

Other observations

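Of 56 WT Sox2 sites on unplaced sequence 35 were lost (62.5%), and of 32 on the pool of unassigned contigs 23 (71.9%). Within the first 3.5 Mb of a chromosome, where the assembled sequence begins, 33 of 74 sites were lost (44.6%), against 17.3% of the sites farther in, and 9 of the 33 lay in repeated sequence. On chromosome 16 these were 8 of 11 sites, all with Olfr161 as the nearest gene, and on chromosome 3 they were 4 of 4, all in H3K9me3 domains in WT and KO.

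Other short motifs, searched on either strand within 50 bp and chosen after the data were seen, were also counted. The Esrrb element AAGGTCA was at 3.19% of lost and 4.40% of kept sites (difference -2.37 to 0.266 points), against 1.86% of genome windows. The Klf core GGGTGTG was at 3.41% and 4.12% (-1.89 to 0.796), the AP-1 element TGACTCA at 1.32% and 1.30% (-0.665 to 1.04) and the NF-Y box CCAAT at 9.80% and 9.70% (-1.90 to 2.37). The CRE element TGACGT was at 15 lost sites (1.65%) and 24 kept sites (0.568%), against 0.732% of genome windows. The difference was 1.08 points (0.380 to 2.16), and within height groups 0.714 points with an interval that covered 0 (-0.224 to 1.65).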
